A study of Mus musculus with 36 samples.

Results

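Pancreatic fibroblasts from C57BL/6 mice were grown for 48 h beside tumour sub-clone V, and their RNA was compared with that of like fibroblasts kept in mono-culture. The comparison used 8 of the 36 samples of the series, namely the 4 whose label places them in co-culture with clone V and the 4 labelled mono-culture, and no measured value entered that choice. The remaining 28 samples came from co-culture with clones H, T, N, E, M and K and with KPC1, 4 from each. They entered the filter, the scaling and the estimate of spread behind each p-value, and later contrasts compared clone V with them. The tumour cells carried GFP, by which the co-cultures were separated in a flow sorter before fibroblast RNA was taken. The sample titles number the co-cultures in rounds by replicate and the mono-cultures after them, as a run of their own. A part of handling in the contrast with mono-culture cannot be told apart from co-culture. The labels name no agent, mutation or age for the fibroblasts, and they do not say how clone V was made. They name no separate culture or animal behind a replicate. The p-values below thus measure only the spread between samples, estimated from all 36, which may be technical.

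Fibroblasts of the pancreas build and remodel the matrix around tumours, and in contact with tumour cells they can take on a contractile, TGF-beta-driven state or a cytokine-secreting state. Cells short of amino acids or with misfolded protein in the endoplasmic reticulum slow translation through the initiation factor eIF2 and raise the transcription factor ATF4, which drives genes for amino acid synthesis, amino acid uptake and tRNA charging. Sterol and fatty acid synthesis is run by the SREBP factors, and interferon target genes are switched on by interferon-activated transcription factors.

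Poly(A) RNA was read as 76 bp paired ends, and the total counts of the 36 samples lay between 12532100 and 21985500 to 6 digits. Fibroblast genes were abundant in the 8 samples, with 2696 ± 779 CPM of Vim in clone V and 2483 ± 349.7 CPM in mono-culture (SD, n = 4 each; CPM, counts relative to the scaled library size). Vim does not stand for its whole list, since of 12 fibroblast identity markers 2 were called higher with clone V and 6 lower (median log2 fold change -0.48). The summed level of that list was 11098.9 to 21796.1 CPM with clone V and 21956.5 to 23759.5 CPM in mono-culture. Defining genes of other cells were mostly at or under 3 counts in each of the 8 samples, which held for 8 of 12 leukocyte genes, 5 of 10 endothelial genes and 8 of 10 acinar and islet genes. Ptprc was at 0 in mono-culture with at most 1 count in clone V, and Cdh5 was at or under 2 counts. The summed level of the leukocyte list was 5.73 to 19 CPM with clone V and 13.7 to 16.6 CPM in mono-culture, that of the endothelial list 8.61 to 9.46 CPM and 9.28 to 10.2 CPM, and that of the acinar and islet list 2.4 to 4.37 CPM and 6.44 to 9.52 CPM. Of the endothelial list 0 of 5 tested genes were called, and of the acinar and islet list 1, Prss2, was called higher with at most 6 counts in a clone V sample and 0 in mono-culture, and 1, Cela1, lower.

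Epithelial transcripts moved with co-culture and stand beside the results that follow. Of 18 epithelial and tumour cell markers 12 could be tested, of which 7 were called higher and 0 lower with clone V (median log2 fold change 4.32, or 2.63 with members at the floor set to their bound of 3 counts). Their summed level was 67.7 to 282 CPM in the 4 clone V samples and 45.9 to 50.6 CPM in mono-culture, of which Sox9, which was not called, made up 44.7 ± 1.69 CPM in mono-culture. Epcam had 0 counts with clone V and at most 9 in mono-culture, and Cldn4 had 0 in all 8. Krt18, an epithelial keratin, stood at 17.2, 14.9, 69.9 and 115 CPM in clone V replicates 1 to 4 against 0.165, 0.22, 0.0761 and 0.183 CPM in mono-culture. Replicates 3 and 4 were thus the high ones, as they were for Cdh1, the E-cadherin gene (6.36, 4.33, 21.7 and 27.8 CPM against 0.44, 0.44, 0.152 and 0 CPM). The part of such RNA in other results was not tested, and no sample of clone V alone was analysed here. In sorted bulk samples, fewer cells of a type and less RNA per cell cannot be told apart.

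In all, 8414 of 14439 genes tested (58.3%) were called different between clone V co-culture and mono-culture at an adjusted p under 0.05, 4245 of them higher (29.4%) and 4169 lower (28.9%). The median log2 fold change over all genes tested was 0.01. A change of at least 2-fold was seen for 1179 called genes that were higher and 1753 that were lower, and of at least 4-fold for 370 and 536. The 4 samples of one group lay wholly beyond the 4 of the other for 52.3% of genes. Without scaling beyond library size the higher share of called genes was 42.4% in place of 50.5%, with a median over all genes of -0.08, so the even split depended on scaling. Counts of list members below are to be read against these percentages.

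**Figure D1:**
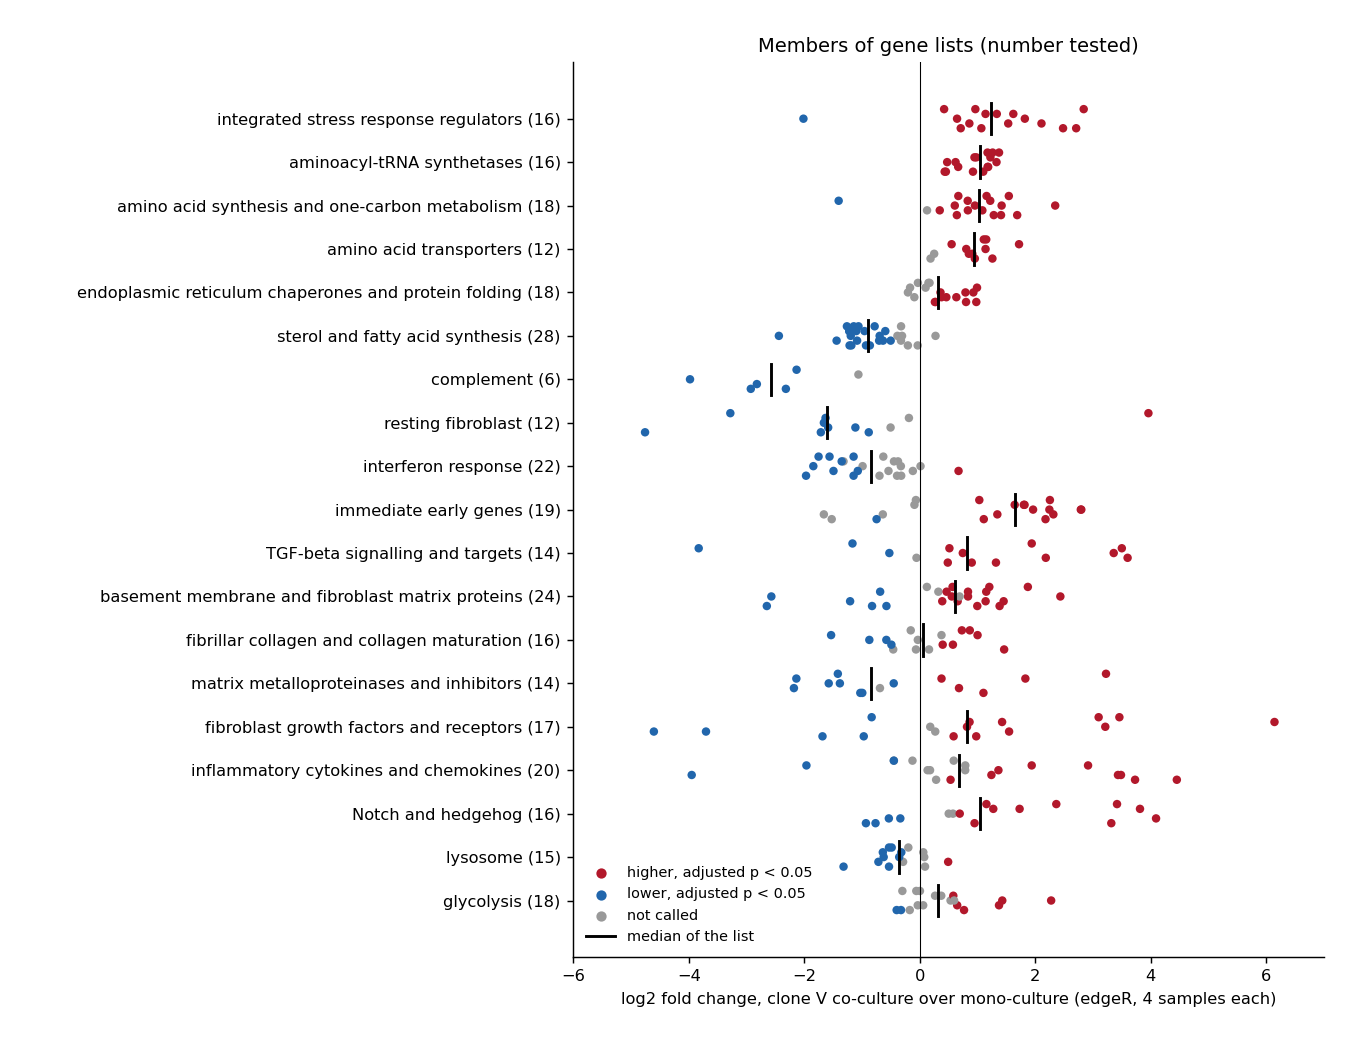
Log2 fold change of clone V co-culture over mono-culture (x axis) for each tested member of 19 gene lists (y axis), with red for genes called higher, blue for genes called lower, grey for genes not called and a black bar for the list median. The 4 lists on the amino acid stress response lie right of 0 except Atf5 (-2.02) and Cbs (-1.41), all called sterol and complement genes lie left of it, and of the called resting fibroblast genes Col15a1 (3.96) alone lies right.

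Genes of the integrated stress response, amino acid supply and tRNA charging were mostly higher in the samples from clone V co-culture. Which stress signal lay behind the rise was not tested. Among 16 regulators and early targets 15 were higher and 1, Atf5, was lower (median 1.24). All 16 aminoacyl-tRNA synthetases, the enzymes that charge tRNAs, were higher (median 1.04). Of 18 genes of amino acid synthesis and one-carbon metabolism 16 were higher and 1, Cbs, was lower (median 1.02), and of 12 amino acid transporters 10 were higher and 0 lower (median 0.93).

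Atf4 itself (ENSMUSG00000042406), the transcription factor at the centre of the response, measured 1095, 974, 1061 and 759 CPM with clone V and 481, 674, 574 and 651 CPM in mono-culture (log2 fold change 0.71, SE 0.14, adjusted p = 6.2e-05). The groups did not overlap, and clone V replicate 4 was the lowest of its group. Ddit3, which encodes the stress factor CHOP, measured 316, 352, 400.2 and 259 CPM against 125, 136, 140.2 and 126 CPM (log2 fold change 1.33, SE 0.21, adjusted p = 2.4e-06). Ppp1r15a, which encodes the GADD34 subunit that restores translation, rose from 40.1 ± 7.73 CPM to 224 ± 79.8 CPM (SD, n = 4 each, log2 fold change 2.48, SE 0.29, adjusted p = 3.6e-08). Gdf15, a secreted stress cytokine, had the largest rise of the regulators, with 207, 149, 189 and 127 CPM against 15.6, 23.1, 26 and 29.1 CPM (log2 fold change 2.84, SE 0.29, adjusted p = 2.4e-09). Clone V replicate 4 again gave the lowest value, yet it was above each mono-culture sample. Atf5, another ATF-family factor, went the other way, from 367 ± 62.7 CPM to 90.7 ± 28.2 CPM (SD, n = 4 each, log2 fold change -2.02, SE 0.24, adjusted p = 2.6e-08).

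Asns, asparagine synthetase, measured 671, 562, 569.6 and 431 CPM with clone V and 137, 205, 171 and 180.2 CPM in mono-culture (log2 fold change 1.69, SE 0.23, adjusted p = 2.7e-07). Cth, which makes cysteine from cystathionine, rose most in its list, with 143, 97.5, 78.2 and 56.5 CPM against 14.1, 23.1, 15.2 and 21.3 CPM (log2 fold change 2.34, SE 0.36, adjusted p = 2.2e-06). The serine pathway enzymes Phgdh, Psat1 and Psph and the mitochondrial folate enzymes Shmt2 and Mthfd2 were all higher, with log2 fold changes of 1.08, 0.95, 1.22, 1.28 and 1.42. Cbs, the enzyme just before Cth in cysteine synthesis, was lower at -1.41 (SE 0.34) from 1.87 ± 0.276 CPM in mono-culture (SD, n = 4). Tars, threonyl-tRNA synthetase, gave the largest rise of the synthetases with 557, 489.6, 449 and 365 CPM against 153, 189, 171 and 206 CPM (log2 fold change 1.37, SE 0.20, adjusted p = 1.3e-06). Aars was called higher by a small margin (log2 fold change 0.43, SE 0.18, adjusted p = 0.035) and was not called in the absence of any one of clone V replicates 1, 2 and 3 or mono-culture replicates 1 and 3, where its log2 fold change was between 0.37 and 0.41. Of the transporters Slc7a11, the cystine importer, rose most, with 185, 149, 98.3 and 72.2 CPM against 30.8, 46.4, 33.7 and 42.5 CPM (log2 fold change 1.72, SE 0.41, adjusted p = 0.00067). Clone V replicates 1 to 4 gave a wide range for it, yet replicate 4, the lowest, was above each mono-culture sample.

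Promoter sequences are shown for listed genes that carry the short motif read by ATF4 with C/EBP partners, since ATF4 is known to act on genes of the amino acid stress response through it. It was searched as TGATGNAA, where N is any base, on both strands of RefSeq windows from 250 bases before to 50 after each gene start (build GRCm38.p6, the same assembly as mm10). A window was found for 424 of the 573 listed genes that had counts. The motif stood in 5 of 9 aminoacyl-tRNA synthetase promoters (55.6%), 6 of 15 of the regulators (40.0%), 4 of 16 of the synthesis genes (25%) and 2 of 8 of the transporters (25%), compared with 1219 of 27025 genes in all (4.51%). Of the other lists, adipogenic and retinoid genes (3 of 13, 23.1%) and acinar and islet markers (2 of 9, 22.2%) held it at shares near those of the synthesis genes and transporters. A match is a description of letters and not a bound site. Capitals mark each match on either strand in 50 bases printed 5′ to 3′ along the gene, for Atf3 (chr1:191183415-191183464, minus strand, first capital 110 bases before the start), Chac1 (chr2:119351028-119351077, plus strand, 193 before), Pycr1 (chr11:120643823-120643872, minus strand, 103 before) and Slc7a11 (chr3:50443651-50443700, minus strand, 66 before).
Atf3: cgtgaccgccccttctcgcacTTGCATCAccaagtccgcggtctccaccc
Chac1: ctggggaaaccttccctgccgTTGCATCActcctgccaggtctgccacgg
Pycr1: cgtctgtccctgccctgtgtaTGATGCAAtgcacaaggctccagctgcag
Slc7a11: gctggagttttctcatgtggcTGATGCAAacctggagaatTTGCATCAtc
The 4 genes shown were all called higher with clone V, as were most members of their lists. Other carriers of the motif were called in both directions or not at all. For example, Herpud1 and Ctsl were higher, Pck2 and Pi16 were not called, and Idi1, Crabp1 and Gbp3 were lower. A link between the motif and the rise was not tested. Atf3, a stress-induced repressor, stood at 34.3, 31.4, 45.1 and 18.4 CPM against 5.23, 6.93, 8.9 and 8.96 CPM (log2 fold change 2.11, SE 0.38, adjusted p = 2.2e-05), Chac1, a glutathione-degrading enzyme, had a log2 fold change of 1.53 (SE 0.28), and Pycr1, a proline synthesis enzyme, one of 0.64 (SE 0.23) with overlapping samples.

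Genes of protein folding moved less. Among 18 chaperones and folding factors of the endoplasmic reticulum 11 were higher and 0 lower (median 0.32), a count that fell to 7 higher and 1 lower when no scaling factors were used. Hspa5, the chaperone BiP, measured 897, 766, 1044 and 922 CPM against 429, 479, 426 and 508 CPM (log2 fold change 0.98, SE 0.17, adjusted p = 1e-05). Xbp1, a transcription factor of the unfolded protein response, rose most (log2 fold change 0.99, SE 0.10, adjusted p = 1.8e-09), with the groups apart. Calr, Canx and Pdia3 were not called, at -0.21, 0.10 and -0.03. The endoplasmic reticulum stress element, searched on both strands as CCAAT and CCACG with any 9 bases between them, stood in 7 of 16 promoters of this list (43.8%) and in 37 of 27025 genes (0.14%). Carriers of it were on both sides of the threshold: Hsp90b1 (chr10:86705622-86705671, minus strand, first capital 212 bases before the start) and Pdia6 (chr12:17266476-17266525, plus strand, 98 before), printed here as examples, were called higher at 0.46 (SE 0.09) and 0.63 (SE 0.09), as was Hspa5, while Calr, Canx, Creld2 and Dnajc3 were not called.
Hsp90b1: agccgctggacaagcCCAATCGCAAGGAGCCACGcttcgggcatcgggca
Pdia6: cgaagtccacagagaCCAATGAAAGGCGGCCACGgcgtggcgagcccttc

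**Figure D2:**
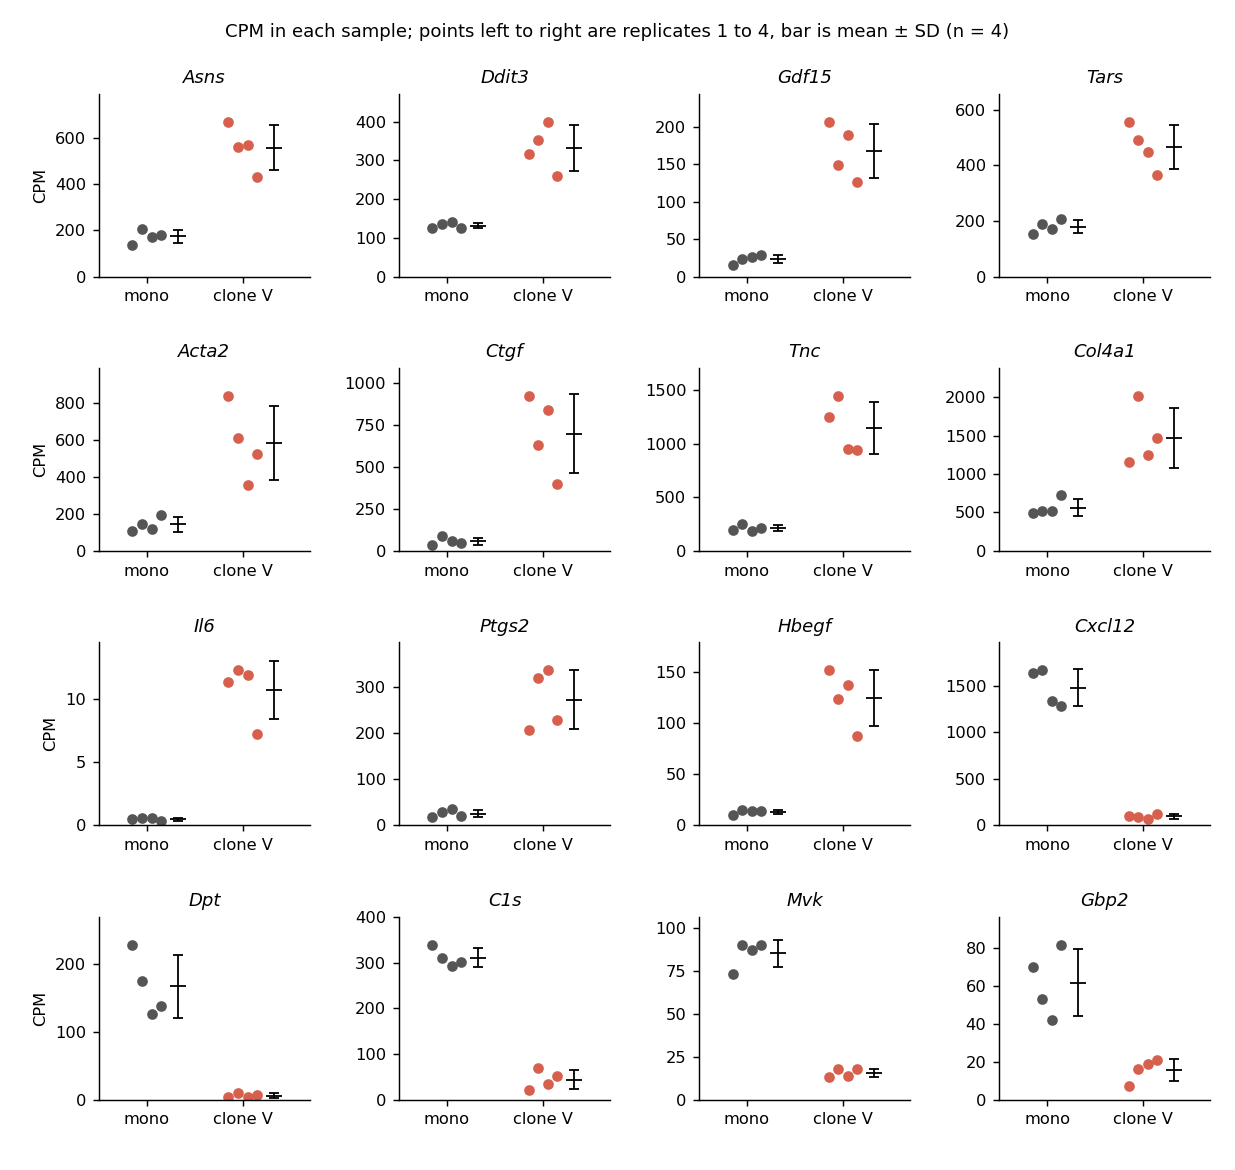
CPM (y axis, linear from 0) of 16 genes in the 4 mono-culture samples (grey) and the 4 clone V samples (red), with the mean ± SD beside each group. The groups do not overlap in any panel, and clone V replicate 4 is the lowest of its group for Asns, Ddit3, Gdf15 and Tars.

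Sterol and fatty acid synthesis was lower with clone V. Of 28 genes 0 were higher and 21 lower (median -0.90). Mvk, mevalonate kinase, had the largest change, from 73.3, 90.1, 87.3 and 89.7 CPM in mono-culture to 13.4, 17.9, 13.7 and 17.7 CPM with clone V (log2 fold change -2.44, SE 0.17, adjusted p = 3.1e-12). Hmgcs1, which makes the precursor of mevalonate, measured 162, 216, 274 and 289 CPM against 452, 551, 592 and 591 CPM (log2 fold change -1.22, SE 0.17, adjusted p = 5.4e-07). Scd2, a fatty acid desaturase and one of the 5 genes with the largest loss in CPM, fell from 4078 ± 543 CPM to 2138 ± 344 CPM (SD, n = 4 each, log2 fold change -0.93, SE 0.21, adjusted p = 0.00028). Fasn, Acly and Elovl6 of fatty acid synthesis were called lower at -0.70, -1.1 and -1.44. Srebf1, Srebf2 and Cyp51 were not called, with log2 fold changes of -0.32, -0.21 and -0.04. A sterol element, searched as TCACNCCAC on both strands, was met in 1 of 19 promoters of this list, that of Hmgcs1 (chr13:119690194-119690243, plus strand, first capital 137 bases before the start), and in 1.44% of all genes.
Hmgcs1: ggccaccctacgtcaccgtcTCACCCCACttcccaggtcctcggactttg

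Genes of quiescent fibroblasts and complement were among the strongest losses. Of 12 tested resting fibroblast genes 9 were lower and 1 higher (median -1.61), and of 6 tested complement genes 5 were lower and 0 higher (median -2.57). Dpt, which encodes the matrix protein dermatopontin, fell from 228, 175, 126 and 137 CPM to 3.61, 10.6, 3.54 and 6.76 CPM (log2 fold change -4.76, SE 0.39, adjusted p = 6.1e-11). Scara5, Igfbp6, Efemp1 and Cd34 were lower at -3.28, -1.64, -1.71 and -1.66. Col15a1, which encodes a basement membrane collagen, moved against the list, with 197, 292, 122 and 139.9 CPM against 15.4, 12.7, 11 and 9.28 CPM (log2 fold change 3.96, SE 0.27, adjusted p = 3.1e-12). C1s, a protease of the classical complement pathway, stood at 20.7, 68.7, 35.3 and 51.2 CPM against 339, 311, 292 and 302 CPM (log2 fold change -2.82, SE 0.28, adjusted p = 1.6e-09), and C3, the central complement protein, at 3.66, 3.8, 0.272 and 4.25 CPM against 66.8, 39.8, 30.04 and 52.6 CPM (log2 fold change -3.98, SE 0.60, adjusted p = 1.8e-06). Clone V replicate 3 was far below its group for C3.

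Of all called genes with separated samples, the 8 lowest were Rtl1, Chrm2, Inmt, Rspo2, Lyz2, Hlf, Angptl1 and Tnxb. Rtl1, an imprinted retrotransposon-derived gene, had 0 counts in the 4 clone V samples and 2.48, 2.92, 1.06 and 1.69 CPM in mono-culture, which is at least 12.7-fold lower against a floor of 3 counts. Lyz2, lysozyme, a myeloid marker in other tissues, was at least 20.7-fold lower from 3.32 ± 0.759 CPM in mono-culture (SD, n = 4). It was the 1 lower member of the 4 tested on the leukocyte list, and the other 3 were not called. Rspo2, a secreted enhancer of Wnt signalling, measured 0.814, 0.915, 0.49 and 0.838 CPM against 45.1, 59.4, 38.9 and 31.5 CPM. Tnxb, tenascin X, fell from 12.3 ± 2.09 CPM to 0.281 ± 0.0638 CPM (SD, n = 4 each, log2 fold change -5.42, SE 0.47, adjusted p = 8.7e-11). Hlf, a PAR-domain transcription factor with circadian rhythm, changed by -5.77 on the log2 scale. Of the called genes, Ptn and then Scd2 had the largest losses in CPM. Ptn, the growth factor pleiotrophin, measured 238, 656, 350.3 and 446 CPM against 2542, 2663, 2388 and 2149 CPM (log2 fold change -2.53, SE 0.24, adjusted p = 4.5e-10). The mitochondrial gene mt-Nd5 was also called lower (log2 fold change -0.66, SE 0.16, adjusted p = 0.00074), but its groups overlapped, with 4042, 2961, 2630.1 and 2243 CPM against 5625, 5693, 4733 and 2709 CPM, and mono-culture replicate 4 had the lowest mitochondrial share of all 36 samples, 2.16% of counts.

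The 8 highest fitted changes were those of Cldn6, Rph3a, Krt8, Nkx6-3, Wnt7a, Krt18, Cdh13 and Wfdc2, 3 of which are on the epithelial list. Of the others, Wnt7a, a Wnt ligand, had 0 counts in mono-culture and 0.56, 0.77, 6.65 and 5.21 CPM with clone V, at least 19-fold higher. Wfdc2, a secreted protease inhibitor of epithelia, was at least 83.5-fold higher with 3.97, 4.24, 15.3 and 34.6 CPM, and Nkx6-3, a homeobox factor, at least 22.2-fold higher with 1.27, 1.01, 4.69 and 8.44 CPM. In each of these 3 genes, replicates 3 and 4 were the high ones, as for Krt18. The bounds were 12.5-fold for Wnt7a without replicate 3, and 45.0-fold for Wfdc2 and 13.4-fold for Nkx6-3 without replicate 4. Rph3a, which encodes a vesicle protein, had the opposite order with 15.4, 2.6, 1.74 and 0.598 CPM and was at least 29.2-fold higher than in mono-culture, where it had 0 counts, a bound of 9.47-fold without replicate 1. Wnt7a and Rph3a were also higher than the mean of the other 7 co-cultures (log2 fold change 2.4, adjusted p = 0.00016, and 5.07, adjusted p = 1.7e-08).

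Contractile genes were called in both directions, and TGF-beta genes were mostly called higher. Of 15 tested contractile genes 5 were higher and 4 lower (median 0.27), the lower count being 2 without clone V replicate 3. With all samples, this split is close to the background call rates of 29.4% up and 28.9% down. The contractile list as a whole thus did not stand out, and its single genes are given as examples. Of 14 TGF-beta ligands, receptors and targets 10 were higher and 3 lower (median 0.82), and of 10 YAP and TEAD targets 6 were higher and 2 lower (median 0.49). Acta2, smooth muscle actin, the usual myofibroblast marker, measured 839, 609, 359 and 525 CPM against 109, 148, 121 and 195 CPM (log2 fold change 2.02, SE 0.38, adjusted p = 4.9e-05). Tagln, transgelin, rose most of the contractile genes with 412, 241, 119 and 154 CPM against 30.8, 38.4, 30.5 and 48 CPM (log2 fold change 2.64, SE 0.47, adjusted p = 2.1e-05). For both genes replicate 1 was the highest clone V sample. Myl9, Lmod1 and Des were called lower at -0.74, -1.15 and -1.53.

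Ctgf (now Ccn2), a matricellular target of TGF-beta and YAP, measured 921, 628, 838 and 399 CPM against 37.9, 87.5, 58.4 and 46.3 CPM (log2 fold change 3.6, SE 0.45, adjusted p = 1.1e-07). Inhba, the activin A subunit, rose by 3.5 (SE 0.28) on the log2 scale. The ligand Tgfb2 measured 48.4, 85.4, 95 and 74.8 CPM against 13.3, 19, 17.5 and 17.2 CPM (log2 fold change 2.18, SE 0.21, adjusted p = 1e-09), whereas the receptor Tgfbr2 was lower at -1.17 (SE 0.15). Tgfbi, a matrix protein named for its induction by TGF-beta, went against the list from 46.4, 41.4, 40.5 and 38.7 CPM to 1.02, 3.85, 2.78 and 4.13 CPM (log2 fold change -3.83, SE 0.34, adjusted p = 2e-10). Cyr61 (now Ccn1) and Ankrd1 were higher at 1.72 and 1.68, and Amotl2, another YAP target, was lower at -0.98.

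Matrix genes moved in both directions. Of 24 basement membrane and fibroblast matrix genes 15 were higher and 6 lower (median 0.61), with 9 higher when clone V replicate 2 was left out, and of 16 genes of fibrillar collagen and its maturation 6 were higher and 4 lower (median 0.06). Col4a1, a chain of the type IV network, measured 1150.2, 2014, 1243 and 1474 CPM against 491, 519, 519.8 and 726 CPM (log2 fold change 1.38, SE 0.20, adjusted p = 6.1e-07), and Col6a3 rose by 1.87 (SE 0.29). Tnc, tenascin C, rose most with 1248, 1448, 955 and 945 CPM against 197, 251, 189 and 213 CPM (log2 fold change 2.43, SE 0.33, adjusted p = 3.2e-07). Eln, Lum and Dcn, for elastin, lumican and decorin, were lower at -2.65, -2.57 and -1.21.

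Of the fibrillar chains, Col1a1 measured 3707, 6862, 4701 and 5861 CPM against 7018, 7935, 6670.1 and 7449 CPM and was not called (log2 fold change -0.46, SE 0.20, adjusted p = 0.052), although 9 of 17 alternatives called it lower. Col3a1 was called lower (log2 fold change -0.58, SE 0.22, adjusted p = 0.026) with overlapping samples, 1601, 5258, 2566 and 4410.1 CPM against 5166, 5129.5, 4989 and 5386 CPM, and was not called without clone V replicate 1 (-0.34, adjusted p = 0.14) or replicate 3 (-0.46, adjusted p = 0.10). Col1a2 was likewise lost without clone V replicate 1 (-0.38, adjusted p = 0.058). Col5a3, a minor fibril chain, was higher (log2 fold change 1.46, SE 0.22, adjusted p = 1.3e-06), and Loxl1, a collagen and elastin cross-linking enzyme, was lower (log2 fold change -1.54, SE 0.19, adjusted p = 5.3e-08). Fn1, fibronectin, gained the most CPM of all genes with 7778, 8951, 6706 and 7035 CPM against 4905, 5424, 4577 and 4435 CPM (log2 fold change 0.66, SE 0.27, adjusted p = 0.038). Its groups did not overlap, but the call was lost without any one of clone V replicates 1 and 2 or mono-culture replicates 1, 3 and 4, at log2 fold changes of 0.57 to 0.66. Bgn, biglycan, was not called without clone V replicate 2 (0.32, adjusted p = 0.11 in place of 0.016). Spp1, osteopontin, another of the 5 largest gains, measured 1437, 1187, 1102 and 1681 CPM against 225, 167, 169 and 223 CPM (log2 fold change 2.79, SE 0.38, adjusted p = 4.3e-07).

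Of 14 matrix metalloproteinases, ADAMTS proteases and inhibitors 5 were higher and 8 lower (median -0.84), with 3 higher in the absence of mono-culture replicate 4. Timp1 and Timp3, which inhibit matrix proteases, were higher at 1.83 (SE 0.22) and 1.1 (SE 0.32), and Timp2 was lower at -1.42 (SE 0.14). Adamts1 and Adamts5, which cleave proteoglycans, fell by similar amounts, with 55.3, 220.5, 126 and 159 CPM of Adamts1 against 496, 710.3, 627 and 705 CPM (log2 fold change -2.18, SE 0.31, adjusted p = 8.9e-07) and a log2 fold change of -2.14 (SE 0.27) for Adamts5. Mmp14 and Mmp2, a membrane collagenase and the gelatinase it activates, were lower at -1.03 and -1.0.

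Immediate early genes, which respond to growth factor and MAP kinase signals, were raised. Of 19 members 13 were higher and 1 lower (median 1.64). Fosl1, an AP-1 subunit, measured 134, 106, 151 and 102 CPM against 16.9, 18.3, 17.3 and 18.5 CPM (log2 fold change 2.8, SE 0.29, adjusted p = 3.4e-09). Dusp6, a phosphatase that restrains ERK, measured 127, 130.2, 126 and 154 CPM against 16.6, 32.6, 50.2 and 14.4 CPM (log2 fold change 2.25, SE 0.38, adjusted p = 8.5e-06), and Myc rose by 1.96 (SE 0.24). Fos itself was not called, at 18, 28.2, 132 and 129 CPM against 57.2, 331, 450 and 47.2 CPM, a spread wide within both groups, and Spry2, an inhibitor of receptor signalling, was lower at -0.75 (SE 0.19).

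Among secreted factors, the EGF-family ligands rose together. Of 17 tested growth factor and receptor genes 10 were higher and 5 lower (median 0.82). Areg, amphiregulin, measured 14.1, 10.4, 12.8 and 8.2 CPM against 0.275, 0.055, 0.152 and 0.137 CPM (log2 fold change 6.14, SE 0.79, adjusted p = 1.6e-07). Its neighbour Ereg, epiregulin, measured 78.9, 65.4, 60.8 and 39.8 CPM against 5.5, 5.67, 6.08 and 5.12 CPM (log2 fold change 3.46, SE 0.36, adjusted p = 5e-09), and Hbegf 152, 124, 137 and 87.2 CPM against 10.6, 15.4, 14.1 and 13.8 CPM (log2 fold change 3.21, SE 0.33, adjusted p = 4e-09). For Areg, Ereg and Hbegf replicate 1 was the highest clone V sample and replicate 4 the lowest, while Krt18 was highest in replicates 3 and 4. The part of tumour cell RNA in these values was not tested. Vegfa, the endothelial growth factor, was higher at 1.55 (SE 0.17). Igfbp5, an IGF-binding protein, fell from 17.3, 13.2, 6.69 and 3.29 CPM to 0.203, 1.16, 0.109 and 0.12 CPM (log2 fold change -4.6, SE 0.76, adjusted p = 5.9e-06), and Pdgfra, the platelet-derived growth factor receptor of quiescent fibroblasts, from 353, 314, 312 and 269.5 CPM to 40.6, 128, 88.3 and 131 CPM (log2 fold change -1.68, SE 0.22, adjusted p = 1.4e-07). Pdgfrb was not called (log2 fold change 0.27, SE 0.21, adjusted p = 0.28).

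Of 20 tested cytokine and chemokine genes 9 were higher and 3 lower (median 0.69). Il6, the main cytokine of inflammatory fibroblasts, measured 11.3, 12.2, 11.9 and 7.24 CPM against 0.495, 0.55, 0.608 and 0.32 CPM (log2 fold change 4.45, SE 0.42, adjusted p = 4.4e-10). Lif, a related cytokine, rose by 3.48 (SE 0.46), and Il33, an alarmin, by 2.91 (SE 0.31). Ptgs2, the inducible cyclooxygenase, measured 206, 321, 336 and 229 CPM against 17.4, 28.1, 35.1 and 21.1 CPM (log2 fold change 3.43, SE 0.37, adjusted p = 7.8e-09). Cxcl12, the chemokine that retains leukocytes, moved the other way and was the largest loss of the list, from 1639, 1667, 1340.4 and 1279 CPM to 97.6, 94.4, 69 and 123 CPM (log2 fold change -3.95, SE 0.42, adjusted p = 5e-09). Cxcl1 and Ccl2 were not called, at 0.59 and 0.18.

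Interferon target genes were lower in part. Of 22 members 9 were lower and 1, Ifih1, was higher (median -0.84), and of 10 tested antigen presentation genes 4 were lower and 0 higher (median -0.57). Gbp2, a guanylate-binding protein, fell most, with 7.48, 16.1, 18.9 and 20.8 CPM against 70.02, 52.9, 42.2 and 81.7 CPM (log2 fold change -1.97, SE 0.35, adjusted p = 1.9e-05), and the groups did not overlap. Ifit1 was lower at -1.15 (SE 0.28), while Isg15, Ifit2 and Stat2 were not called at -0.39, -0.12 and -0.38. Ifih1, the RNA sensor MDA5, measured 91.3, 95.6, 96 and 84.9 CPM against 61.2, 47.3, 45 and 77.1 CPM (log2 fold change 0.67, SE 0.23, adjusted p = 0.014) and was not called without mono-culture replicate 3 (0.57, adjusted p = 0.055). Psmb9, an immunoproteasome subunit, was lower at -2.17 (SE 0.35), and B2m, the light chain of MHC class I, was not called (-0.13). The interferon motif, searched on both strands as GAAA and GAAA with any 2 bases between them, stood in 11 of 17 promoters of the list (64.7%) against 3.99% of all genes. It is shown for Ifit1 (chr19:34640765-34640814, plus strand, first capital 104 bases before the start), which was called lower, and Isg15 (chr4:156200867-156200916, minus strand, 78 before), which was not, with overlapping matches in the latter.
Ifit1: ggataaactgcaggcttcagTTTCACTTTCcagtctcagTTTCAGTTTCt
Isg15: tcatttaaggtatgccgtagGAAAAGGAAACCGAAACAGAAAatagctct

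Genes of developmental pathways were called in both directions. Of 16 Notch and hedgehog genes 10 were higher and 4 lower (median 1.05), with Gli1, the hedgehog target, at 12.7, 20.9, 13.9 and 9.09 CPM against 1.05, 0.99, 1.52 and 1.74 CPM (log2 fold change 3.41, SE 0.35, adjusted p = 2.9e-09) and Gli2 and Smo lower at -0.93 and -0.77. The Notch targets Nrarp and Hey1 were higher at 3.81 and 3.32, from 0.337 ± 0.145 CPM and 0.24 ± 0.127 CPM in mono-culture (SD, n = 4 each). Of 13 tested Wnt pathway genes 4 were higher and 4 lower (median -0.05), near the shares over all genes tested (29.4% higher and 28.9% lower). Axin2, the common readout of Wnt signalling, measured 9.56, 29.5, 16.6 and 20.9 CPM against 0.661, 0.55, 0.228 and 1.28 CPM (log2 fold change 4.71, SE 0.51, adjusted p = 7.4e-09), and Lef1 and Wnt5a were higher at 2.25 and 2.1, while Rspo3 and Sfrp2 were lower at -3.39 and -1.62. Of 12 tested BMP and Id genes 3 were higher and 6 lower (median -0.66). Grem1 and Fst, which encode secreted antagonists of the BMP and activin ligands, were higher at 1.74 and 3.53, and the lower ones included Bmp4, Id2 and Id3 at -0.92, -2.5 and -1.4.

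Among fibroblast identity genes 2 of 12 were higher and 6 lower (median -0.48). Fap, the fibroblast activation protein, measured 18, 30.04, 12.8 and 15.4 CPM against 0.881, 1.27, 1.52 and 0.64 CPM (log2 fold change 4.19, SE 0.29, adjusted p = 2.5e-12), and Thy1 was higher at 0.66 (SE 0.13). S100a4 fell from 557, 525, 584 and 443 CPM to 64.2, 53.3, 45.9 and 129.8 CPM (log2 fold change -2.85, SE 0.37, adjusted p = 2e-07). Of 17 tested adipogenic and retinoid genes 3 were higher and 7 lower (median -0.29), with Aldh1a1, a retinal dehydrogenase, lower at -1.81 (SE 0.36). Apoe was called higher (log2 fold change 1.37, SE 0.37, adjusted p = 0.0022) on the strength of clone V replicate 3, without which it was at 0.74 (adjusted p = 0.064).

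Of 15 tested lysosome genes 9 were lower and 1, Ctsl, was higher (median -0.36), with Hexa, the hexosaminidase subunit, lower at -1.32 (SE 0.14) and Psap at -0.64 (SE 0.13). Of 7 metallothionein and zinc transport genes 4 were higher and 2 lower (median 0.50). Slc39a10, a zinc importer, measured 229, 225, 231 and 198 CPM against 43.5, 44.2, 37.1 and 42.1 CPM (log2 fold change 2.4, SE 0.15, adjusted p = 1.7e-12), and the metal-binding Mt1 and Mt2 were lower at -2.13 and -3.5. Of 14 NRF2 antioxidant genes 4 were higher and 5 lower (median 0.00), Gstm1 and Nqo1 being lower at -2.24 and -2.13 and Txnrd1 higher at 0.68. The NRF2 motif, searched as TGACNNNGC on both strands, stood in 6 of 11 promoters of that list (54.5%) and in 14.0% of all genes.

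In the cell cycle lists the medians were near 0. Of 20 replication and mitosis genes 7 were higher and 2 lower (median 0.20), with 4 higher in the absence of clone V replicate 1 and 4 higher and 4 lower without scaling. Rrm2, the ribonucleotide reductase subunit, was the largest rise (log2 fold change 1.32, SE 0.17, adjusted p = 1.2e-07), and Mki67 was at 0.68 (SE 0.17). Top2a was called higher (log2 fold change 0.34, SE 0.14, adjusted p = 0.038) but not without clone V replicate 1 or 3 or mono-culture replicate 2 or 3 (0.27 to 0.35). Of 14 p53 targets and cell cycle inhibitors 5 were higher and 4 lower (median 0.11). Gadd45a, a DNA damage and stress gene, measured 297, 271, 418 and 225 CPM against 41.7, 42.7, 39.4 and 36.8 CPM (log2 fold change 2.92, SE 0.30, adjusted p = 3.9e-09), and Cdkn1c, an imprinted inhibitor of cell division, fell from 20.1, 20.5, 16.5 and 20.02 CPM to 2.24, 1.4, 1.47 and 1.85 CPM (log2 fold change -3.47, SE 0.28, adjusted p = 3.2e-11). Of 11 circadian genes 5 were higher and 5 lower (median -0.23), with 3 lower in the absence of clone V replicate 1. Arntl and Nr1d1, of opposing arms of the clock, were both higher, at 1.45 and 1.53.

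In the glycolysis and hypoxia lists clone V replicate 4 stood apart from its group, as it also did for the stress regulators. By the rule given further below, a sample stood apart in 16 of 318 sets of 4 values, and chance alone gives about 15.9. Of 18 glycolysis genes 6 were higher and 2 lower (median 0.32), and without clone V replicate 4 the count was 6 higher and 5 lower (median 0.02). The mean log2 CPM of the list was 6.86, 6.77, 6.81 and 7.65 in clone V replicates 1 to 4 and 6.55, 6.71, 6.75 and 6.75 in mono-culture. Of 13 hypoxia genes 2 were higher and 3 lower (median -0.01), and without replicate 4 there were 2 higher and 6 lower (median -0.21), its score being 5.47 where the other clone V samples had 4.52 to 4.58 and mono-culture 4.81 to 4.91. Egln3, an oxygen sensor induced by hypoxia, measured 37.2, 31.1, 34.2 and 129.8 CPM against 17.3, 14.6, 17.3 and 17 CPM (log2 fold change 1.81, and 1.05 without replicate 4, adjusted p = 0.0092). Hk2, a hexokinase, was even across replicates with 72.3, 72, 85.1 and 78.9 CPM against 14.8, 18.3, 13.6 and 16.9 CPM (log2 fold change 2.27, SE 0.26, adjusted p = 2.4e-08). Pkm was called lower (log2 fold change -0.33, SE 0.13, adjusted p = 0.027) but not without any one of clone V replicates 1, 2 and 3 or mono-culture replicates 2 and 4 (-0.32 to -0.24). Of 16 respiratory chain subunits 5 were higher and 2 lower (median 0.08), with Uqcrc2 lower at -0.89 (SE 0.16).

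**Figure D3:**
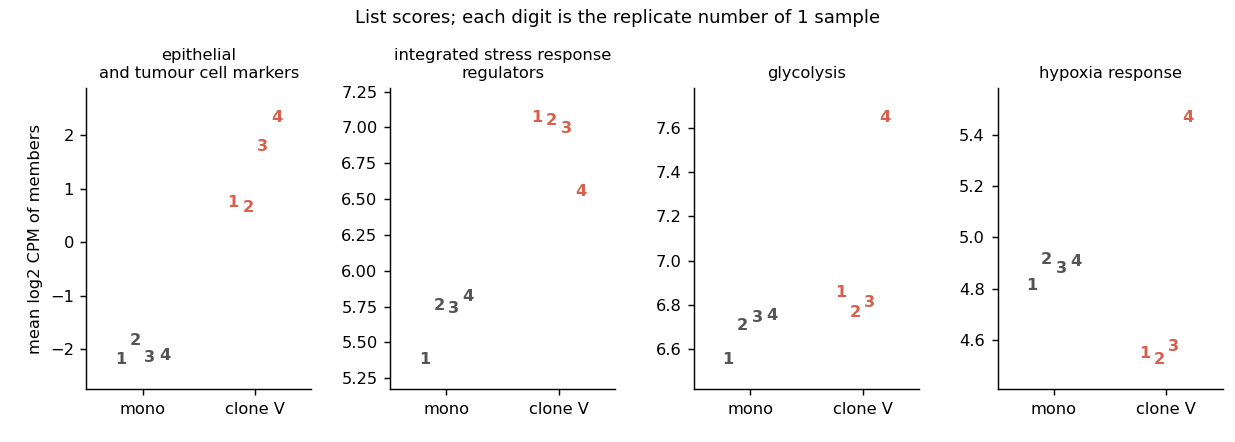
Mean log2 CPM of list members (y axes, which do not start at 0) in each mono-culture and clone V sample, drawn as its replicate number, for 4 lists. Clone V replicate 4 lies alone above the rest for glycolysis (7.65) and hypoxia (5.47) and lowest of its group for the stress regulators (6.55), and replicates 3 and 4 are high for epithelial markers.

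To show where clone V differed from other co-cultures, its samples were tested against the mean of the other 7, which gave 6692 genes (46.3%), 3353 higher (23.2%) and 3339 lower (23.1%). The stress lists were again one-sided. Of the 16 regulators 14 were higher and 1 lower than in the other co-cultures (median 0.80), all 16 synthetases were higher (median 0.69), 15 synthesis genes of 18 were higher and 1 lower (median 0.87), and 10 transporters of 12 were higher and 0 lower (median 0.69). Fgf21, a hormone under ATF4 control, had a log2 fold change of 3.26 over the other co-cultures (adjusted p = 3.4e-09), from 4.58, 4.43, 2.29 and 1.79 CPM with clone V. Of the interferon list 7 genes were higher and 0 lower than in the other co-cultures (median 0.47), although 9 were lower than in mono-culture. Of the sterol list 13 were lower and 0 higher (median -0.33), and of the resting fibroblast list 8 were lower and 0 higher (median -0.46). Epithelial markers differed too, with 6 of 12 tested lower and 1 higher than in the other co-cultures (median -1.30). Their medians over mono-culture were 4.32 with clone V, 4.26 with H, 4.04 with K, 5.36 with M, 6.16 with KPC1, 6.72 with N, 6.89 with T and 7.28 with E. What part epithelial RNA had in this contrast was not tested. A difference from the mean of 7 co-cultures need not be one from each of them. The other co-cultures share the mono-culture samples, so the medians against mono-culture are given only side by side: the stress regulators stood at 1.24 with clone V, 1.03 with clone H, 1.21 with KPC1, 0.75 with clone T, 0.18 with N, -0.01 with K, -0.05 with E and -0.45 with M. The resting fibroblast list stood at -1.61 with clone V, -1.46 with clone H, -1.45 with T, -1.63 with KPC1, -0.72 with E, -0.53 with N, -0.32 with M and -0.31 with K, so that KPC1, H and T lay near clone V. The sterol list stood at -0.90 with clone V, -0.76 with KPC1 and between -0.61 and -0.21 with the others. The interferon list stood at -0.84 with clone V, -0.35 with clone H, -0.87 with KPC1 and between -1.83 and -1.27 with the others.

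**Figure D4:**
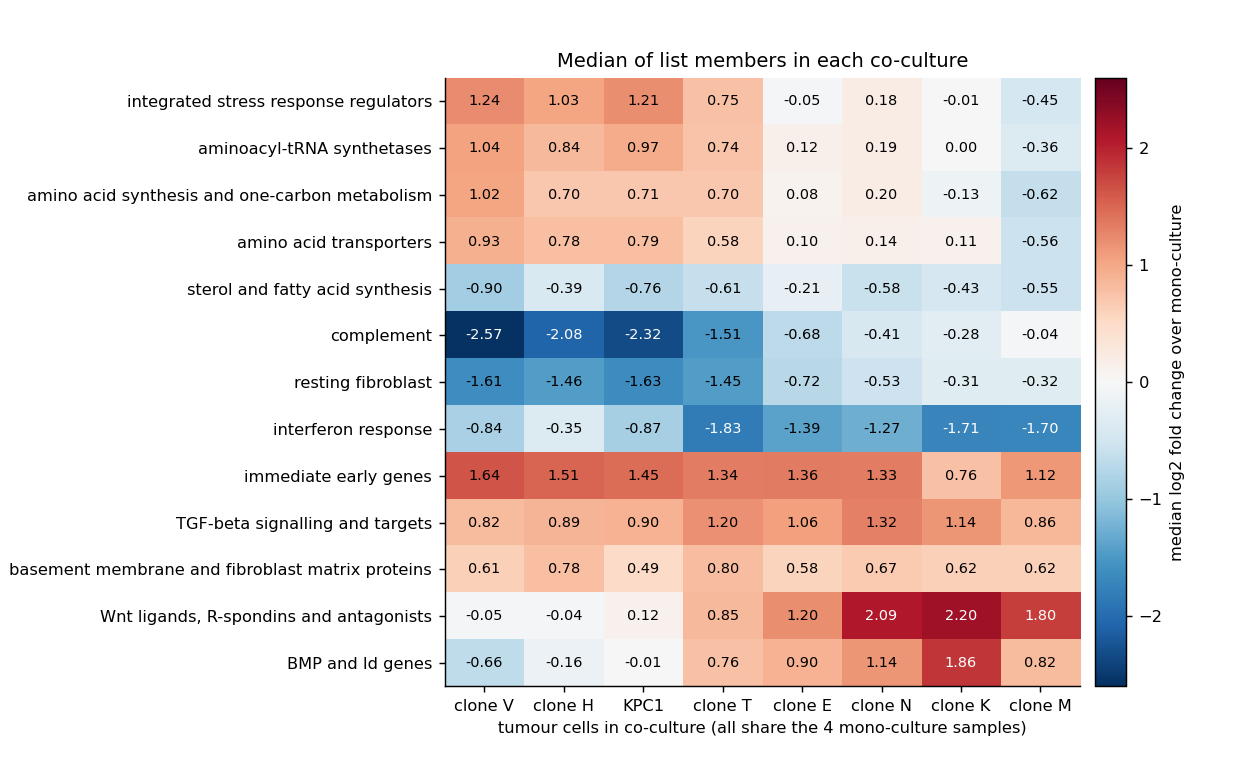
Median log2 fold change over mono-culture (colour and printed value) of 13 gene lists (rows) in the 8 co-cultures (columns), which all share the 4 mono-culture samples. Clone V holds the lowest complement median, -2.57, beside -2.32 for KPC1 and -2.08 for clone H. Its Wnt median, -0.05, compares with -0.04 for clone H, 0.12 for KPC1 and 2.20 for clone K. Its BMP median, -0.66, compares with -0.16 for clone H, -0.01 for KPC1 and 1.86 for clone K.

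Over all genes tested, the root mean square log2 difference from clone V was 0.421 for clone H, 0.572 for KPC1, 0.662 for clone T, 0.744 for E, 0.797 for N, 0.898 for K, 0.941 for M and 1.01 for mono-culture. Of the 14439 genes tested, 25 called genes had the 4 clone V samples above all 28 other co-culture samples and 30 had them below. Each had a mean of at least 2 CPM in clone V or mono-culture. A gene under that level with clone V, such as Rragb or Ecm2, thus entered only through its mono-culture level. The 6 highest were H19, Lepr, Matn3, Igf2, Ccbe1 and Wnt11, and the 6 lowest Abcc3, Rragb, Ecm2, Aspn, Slc25a45 and Clmn.

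H19, a non-coding RNA gene (chr7:142575529-142578143, minus strand, mm10), and Igf2, the growth factor gene next to it (chr7:142650766-142666816, minus strand), form an imprinted pair. H19 measured 152, 181, 66.4 and 111 CPM with clone V, 4.29, 1.76, 2.36 and 3.11 CPM in mono-culture and 0.27 to 32.5 CPM in the 28 other co-culture samples (log2 fold change over the other co-cultures 4.54, adjusted p = 3.7e-10, and over mono-culture 5.45). Igf2 measured 3.76, 6.93, 2.94 and 3.95 CPM, 0.606, 0.77, 0.38 and 0.366 CPM and 0.0562 to 2.87 CPM (2.31, adjusted p = 9.2e-08). Both genes were highest in clone V replicate 2, while Krt18 and Cdh1 were highest in replicates 3 and 4. Lepr, the leptin receptor gene, did follow that order, with 0.61, 1.49, 3.92 and 5.44 CPM against 0 to 0.505 CPM in the other co-cultures (3.13, adjusted p = 1.7e-09), and it was at or under 3 counts in each mono-culture sample. Matn3, a cartilage matrix gene, measured 4.73, 5.97, 10.8 and 10.2 CPM against 0.115 to 4.13 CPM (2.58, adjusted p = 9.2e-10). Its high samples were likewise replicates 3 and 4. The part of tumour cell RNA in the values of H19, Igf2, Lepr and Matn3 was not tested.

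Rragb, a Rag GTPase that signals amino acid levels to mTOR, was lower with clone V than in any of the other samples, with 0.203, 0.0481, 0.163 and 0.12 CPM against 0.336 to 3.1 CPM in the other co-cultures and 3.25, 3.69, 4.03 and 3.29 CPM in mono-culture (-3.02 against the other co-cultures, adjusted p = 3e-06, and -4.67 against mono-culture). Ecm2, a matrix protein gene, measured 0.407, 0.578, 0.599 and 0.479 CPM against 0.603 to 4.37 CPM (-1.96, adjusted p = 1.5e-06). Aspn, asporin, differed in direction by reference, being lower than in the other co-cultures (-1.79, adjusted p = 1.6e-08) and called higher than in mono-culture by a small margin (log2 fold change 0.48, SE 0.21, adjusted p = 0.049), a call lost without any one of 6 of the 8 samples. Abcc3 was lower than in the other co-cultures (-3.05, adjusted p = 4.8e-05) and was not called against mono-culture. Whether tumour cell RNA had a part in that difference was not tested.

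**Figure D5:**
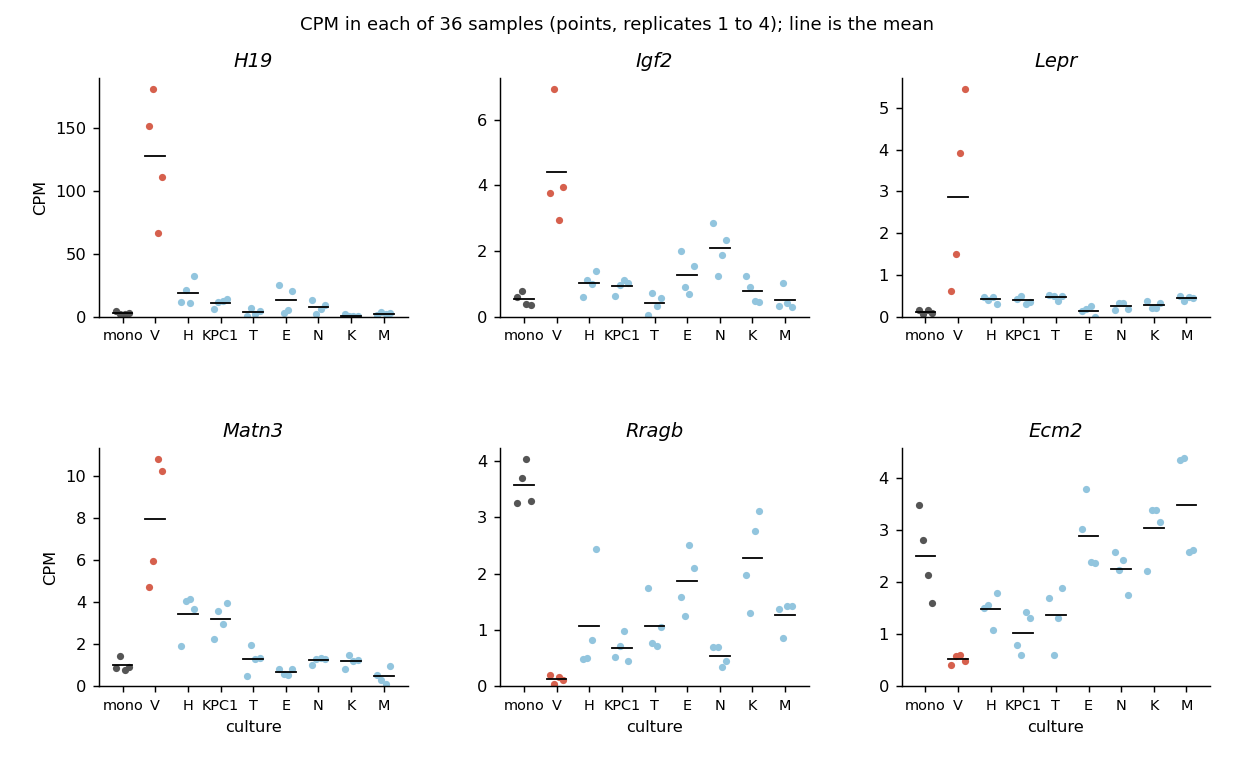
CPM (y axis, linear from 0) of 6 genes in each of the 36 samples (points) by culture (x axis, clones by letter), with the group mean as a line. The 4 clone V samples (red) lie above all other co-culture samples (blue) for H19, Igf2, Lepr and Matn3 and below them for Rragb and Ecm2.

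Clone H was the nearest co-culture. Against it 56 genes were called (0.388%), 14 higher (0.097%) and 42 lower (0.291%), while 1712 had an unadjusted p under 0.05. The count rests on a spread estimated from all 36 samples and was 1 with the 8 samples of clones V and H fitted alone and 172 with DESeq2. It was also 17 without clone V replicate 1 or without clone H replicate 3, 20 without clone H replicate 1, 30 without clone V replicate 3 or clone H replicate 4, and 127 without clone V replicate 4. Of all list members 1 was called, Acly of the sterol list (log2 fold change -0.70, adjusted p = 0.019). Atp8a1, a phospholipid flippase gene, measured 1.02, 0.77, 3.05 and 9.09 CPM with clone V and 0.155 to 0.253 CPM with clone H (log2 fold change 4.05, adjusted p = 0.0047). It was highest in replicates 3 and 4, as the epithelial markers were. H19, Igf2, Lepr and Tnfsf18, the last a ligand of the TNF family, were higher than with clone H by 2.74, 2.09, 2.78 and 1.92 on the log2 scale (adjusted p = 0.026, 0.017, 0.0047 and 0.017). Rragb, Rbm20, Clmn, Trpv4 and Ecm2 were the 5 lowest, at -2.96, -1.92, -1.72, -1.66 and -1.51 (adjusted p = 0.006, 0.017, 0.006, 0.0072 and 0.026).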

How the data were processed

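Fibroblast RNA of 36 samples in 9 groups of 4 was sequenced, and groups were taken from the sample labels. The authors deposited a table of raw read counts per gene and a table of RPKM values (reads scaled to gene length and library size). The labels' processing notes name STAR, featureCounts, edgeR and mm10. Versions, annotation and strand setting of the counting are not given in the sources used here, so overlapping and antisense genes may share reads. No column was left out. Counts were tested in R 4.3.3 with the quasi-likelihood test of edgeR 4.0.16 on all 36 samples, with TMM scaling, the default filter on low counts over the 9 groups, robust dispersion and Benjamini-Hochberg adjustment over all genes tested at 0.05. The contrasts were clone V against mono-culture, clone H and the mean of the other 7 co-cultures. A fold against a group at or under 3 counts in each sample was given as a bound against 3 counts per library. Such bounds cover counting error only. The test was checked on simulated data with far fewer changed genes than were called here, so that check does not cover changes of this extent.

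Genes were named by rule among those with a mean of at least 2 CPM in either group: the 8 highest and 8 lowest called changes with separated samples, the 5 largest gains and losses in CPM, for each of 37 gene lists the called member with the largest change each way and the one with the highest CPM, the 6 highest and 6 lowest against the other co-cultures and the 5 and 5 against clone H. Other list members were named as examples after their values were seen. Members and lists were chosen with earlier results of these data known. Alternatives were DESeq2 1.42.0, other scaling and filters, limma 3.58.1 on log2 RPKM with a pseudocount of 1 or 0.1, a replicate block, the compared samples alone and each replicate left out. By the correlation of same-numbered samples, replicate numbers did not pair clone V with mono-culture, and with clone H they matched for 3 of 4 numbers, short of the rule that every pair exceed 0.1. The bounds with a sample left out were added after seeing the data. Some list members are not reported here. Promoter windows were those of RefSeq for GRCm38.p6, gene positions those of GENCODE for GRCm38, and figures were drawn with matplotlib 3.10.9.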

Additional observations from a re-analysis of the deposited data

Results flagged for a closer look

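With 4 samples in a group, a sample was taken to stand apart when its gap to the nearest other sample divided by the whole range exceeded Dixon's critical value. This was met in 16 of 318 sets of 4 values, and chance alone gives about 15.9. In clone V the ratio was 0.849 for the score of the stress regulators (replicate 4 low), 0.898 for glycolysis and 0.944 for hypoxia (replicate 4 high in both). It was 0.938 for Egln3 and 0.921 for Mt2, a metal-binding protein gene (replicate 4), 0.866 for Ccbe1, a secreted matrix-binding protein gene (replicate 4), 0.864 for Rph3a (replicate 1), 0.91 for Igfbp5 (replicate 2), and 0.853 for C3 and 0.931 for Egfl7, an endothelial list member (replicate 3). In mono-culture it was 0.833 for Mvk (replicate 1), 0.879 for Egln3 (replicate 2), 0.888 for Cdkn1c and 0.85 for Cd14 (replicate 3), 0.96 for the adipogenic and retinoid score (replicate 2) and 0.876 for the circadian score (replicate 1).

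Named genes whose level with clone V differed from that with clone H by edgeR, each at an adjusted p under 0.05, were higher by a log2 difference of 4.05 for Atp8a1, 2.78 for Lepr, 2.74 for H19, 2.09 for Igf2, 1.92 for Tnfsf18, 1.78 for Wnt11 and 1.32 for Ccbe1. Those lower had log2 differences of -2.96 for Rragb, -1.92 for Rbm20, -1.72 for Clmn, -1.66 for Trpv4, -1.51 for Ecm2 and -1.14 for Aspn. Atp8a1, Lepr and Ccbe1 were called with replicates of clone V that differed widely among themselves.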

How the results depend on the processing

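Among the genes named by rule, no call against mono-culture reversed under the alternatives run. Other calls were not checked for a change of sign. Of the list medians, which have no test, that of circadian output changed sign, from -0.23 to 0.09 with at least 10 counts in every sample compared. The near-zero medians of fibrillar collagen (0.06), Wnt (-0.05), hypoxia (-0.01) and respiratory chain genes (0.08) crossed 0 under some alternatives. The 56 genes called against clone H became 172 with DESeq2, 142 with a replicate block, 35 on log2(RPKM + 1), 23 with at least 10 counts in every sample compared and 1 with the compared samples alone, and between 17 and 127 when a replicate was left out. Genes called with a change of at least 2-fold against mono-culture numbered 1874 with at least 10 counts in every sample and 1309 on log2(RPKM + 1), against 2932. Same-numbered samples of clone V and mono-culture were not paired (correlations of their deviations from the group means from -0.02 to 0.22). For clone V and clone H the correlations were 0.02, 0.21, 0.36 and 0.26, and replicates 2, 3 and 4 but not 1 matched their own number best. The titles number same-numbered samples of clones V and H within the same round but state no pairing. Beside the 142 above, the block gave 8954 calls against mono-culture and 7439 against the other co-cultures. List medians moved as follows. Without scaling, ER chaperones 0.22, lysosome -0.45 and p53 0.02. With no filter, p53 0.13, adipogenic -0.60 and epithelial 2.59. With at least 10 counts, p53 0.09, Notch and hedgehog 0.62, adipogenic -1.09 and epithelial 0.06. On log2(RPKM + 1), inflammatory 0.29, antigen presentation -0.42, ER chaperones 0.22, lysosome -0.45, p53 0.01, Notch and hedgehog 0.34 and epithelial 0.41. On log2(RPKM + 0.1), inflammatory 0.44, ER chaperones 0.22, lysosome -0.46, p53 0.01 and epithelial 1.7. Leaving out a replicate gave -0.70 to -0.34 for antigen presentation, -0.45 to -0.31 for lysosome, 0.06 to 0.17 for p53 and -0.71 to -0.21 for adipogenic genes. Filters and left-out samples changed the genes or samples that entered, and other causes were not tested. Depth limits the genes at or under 3 counts, for which absence cannot be told from a low level.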
